A study of Mus musculus with 9 samples.

Results

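The potassium channel subunit genes of the mouse substantia nigra were taken here as all genes whose symbol on the array begins with Kcn and that had a probe set naming no other gene, leaving out Kcnj6, Kcnn3, Kcnd3 and Kcnip3. This rule gave 73 genes out of 17097 genes measured, of which 70 code for proteins and 3 are noncoding RNAs that carry the name of a neighbouring channel gene (Kcnq1ot1, Kcnmb4os1 and Kcnmb4os2). The rule used names and no measured value.

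RNA came from the dissected substantia nigra of Swiss Webster mice, an outbred strain, and was hybridised to Affymetrix HT MG-430 PM arrays, which read each transcript with a set of short probes. The mice had been given intraperitoneal saline, or methylphenidate (MPH) at 1 mg/kg or 10 mg/kg, on school days for 3 months from a juvenile age, followed by a drug-free week. MPH is a stimulant that blocks the dopamine and noradrenaline transporters. Each group had 3 arrays, numbered 1 to 3, with no transgene or gene deletion in any group. The sources do not say whether an array held RNA of 1 mouse or of several, so p-values describe the spread between these arrays. Groups are named by the deposited dose labels. The supplementary gene lists of the study give the 2 doses the other way round, so the mean of both MPH groups against saline, which does not depend on that assignment, was also tested.

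Potassium channels let potassium ions leave or enter a cell along their gradient. Most are tetramers of pore-forming alpha subunits, to which auxiliary subunits bind and alter gating or trafficking. Voltage-gated (Kv) channels end the action potential and space the next one, calcium-activated channels shape the pauses after a spike, and inward rectifiers (Kir) and 2-pore channels set the resting potential. In dopamine neurons of the substantia nigra they set the slow pacemaker rhythm, and autoreceptors for dopamine silence these cells through G protein-gated Kir channels.

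Values are log2 intensities after Robust Multichip Average, for the brightest single-gene probe set of each gene. A value of one gene cannot be set against that of another, since probes differ in strength. The 95th percentile of control probe sets without a matching transcript was 3.59, and 59 of the 73 channel genes had a mean over the 9 arrays above that level. The 14 at or below it, which cannot be told from background, were Kcne1, Kcne2, Kcne3, Kcnh5, Kcnh7, Kcnj1, Kcnj15, Kcnj2, Kcnk5, Kcnk7, Kcnmb1, Kcnmb4os1, Kcns1 and Kcnv2. Some of these, such as the kidney channel Kcnj1 and the choroid plexus subunit Kcne2, are known mainly from tissues outside the substantia nigra.

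No channel gene passed the test in any comparison. Differences were tested in limma with a block for the replicate number and Benjamini-Hochberg adjustment over all 45037 probe sets. With an adjusted p of 0.05 as the threshold, 0 of 73 channel genes were called at the 1 mg/kg label, 0 at the 10 mg/kg label, 0 between the doses and 0 for the mean of both doses. The background share of genes called in each of these comparisons was 0%. Without the block limma called 0.105% of all genes at 1 mg/kg, 0.257% at 10 mg/kg and 0.439% for the mean of both doses, and again 0 channel genes. If a replicate batch had already been removed from the deposited values, p-values without the block are too small. At 1 mg/kg the smallest adjusted p of a channel gene in limma with the block was 0.378, for Kcna5, which had 0.0724 without it. At 10 mg/kg it was 0.441, for Kcnh2, which had 0.103 without the block. For the mean of both doses Kcna5 had 0.328 with the block and 0.0681 without it.

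At an unadjusted p of 0.05 or less, 4 channel genes (5.48%) stood out at 1 mg/kg, where 10.7% of all genes did, and 7 (9.59%) at 10 mg/kg, where 10.2% of all genes did. At 1 mg/kg these were 1 higher (Kcnj9, 3.32% of all genes being higher) and 3 lower (Kcna5, Kcnip1 and Kcnc4, against 7.4%). At 10 mg/kg they were 1 higher (Kcnj13, against 3.28%) and 6 lower (Kcna5, Kcnab2, Kcne2, Kcnh2, Kcnip1 and Kcnj16, or 8.22% against 6.95%). Channel genes whose arrays did not overlap with saline numbered 5 above it (6.85%, against 8.97% of all genes) and 7 below it (9.59%, against 15.3%) at 1 mg/kg, and 4 above (5.48%, against 8.75%) and 8 below (11%, against 15.8%) at 10 mg/kg. Between the doses, 8 genes had an unadjusted p of 0.05 or less, which is 11% of the channel genes against 5.83% of all genes. The mean of both doses gave 3 (Kcna5, Kcne2 and Kcnip1), all lower, which is 4.11% against 12.2% in either direction and 8.64% lower, and 0 higher, against 3.61%.

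The median log2 difference from saline over the 73 channel genes was 0.01 at 1 mg/kg, beside -0.02 for all genes, and -0.01 at 10 mg/kg, beside -0.02. Of the 73 genes, 63 lay within 0.25 of saline on the log2 scale at 1 mg/kg and 60 at 10 mg/kg. The precision of 3 arrays per group sets what could have been seen. The 95% confidence interval of the difference had a median half-width of 0.291, from 0.154 to 1.505. For 69 of the 73 genes it lay wholly between -1 and 1, so that it did not reach a doubling or halving. At background level a narrow interval bounds no change. Of the 59 genes above background, 55 had such an interval, with a median half-width of 0.337. Of these 59, 49 lay within 0.25 of saline at 1 mg/kg and 46 at 10 mg/kg. The exceptions were Kcng4, Kcnip2 and Kcnj13 in both comparisons, with Kcnq3 at 1 mg/kg and Kcnq5 at 10 mg/kg.

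**Figure D1:**
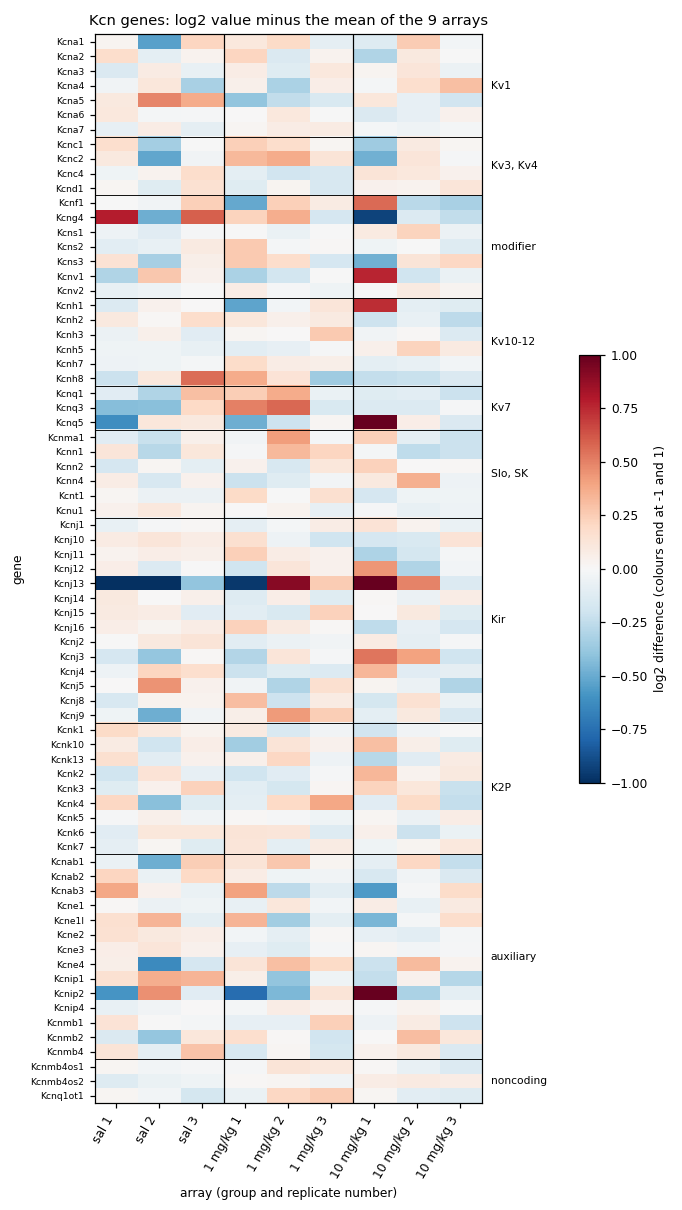
Heat map of the 73 channel genes, with 1 row per gene grouped by family and 1 column per array. Colour gives the log2 value minus the gene's mean over the 9 arrays, with colours ending at -1 and 1. The strongest colours stand in single arrays, mainly saline 2 and 10 mg/kg 1, rather than across all 3 arrays of a group, and Kcnj13 has the largest range, 3.16.

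All groups carry the same tissue label, the substantia nigra, and markers of its dopamine neurons were measured on the same arrays. Over 17 such markers, among them Th, the enzyme that makes the dopamine precursor, the median log2 difference was -0.58 at 1 mg/kg and -0.44 at 10 mg/kg, with 15 and 14 of them lower at an unadjusted p of 0.05 or less and 0 past the adjusted threshold. Without the replicate block, 5 of them passed at each dose and 8 for the mean of both, Th among them (adjusted p = 0.0394 and 0.0415 in limma), whereas the channel genes had 0 in either fit. The p-values of the fit without the block may be too small. Th was 11.18, 11.13 and 10.99 in saline, 10.31, 10.48 and 10.53 at 1 mg/kg and 10.45, 10.63 and 10.51 at 10 mg/kg, with no overlap between saline and MPH. In bulk tissue, fewer cells of a type and less RNA per cell cannot be told apart. The channel genes are expressed by many cell types of the dissection, and the part of dopamine neuron RNA in the channel values was not tested.

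**Figure D2:**
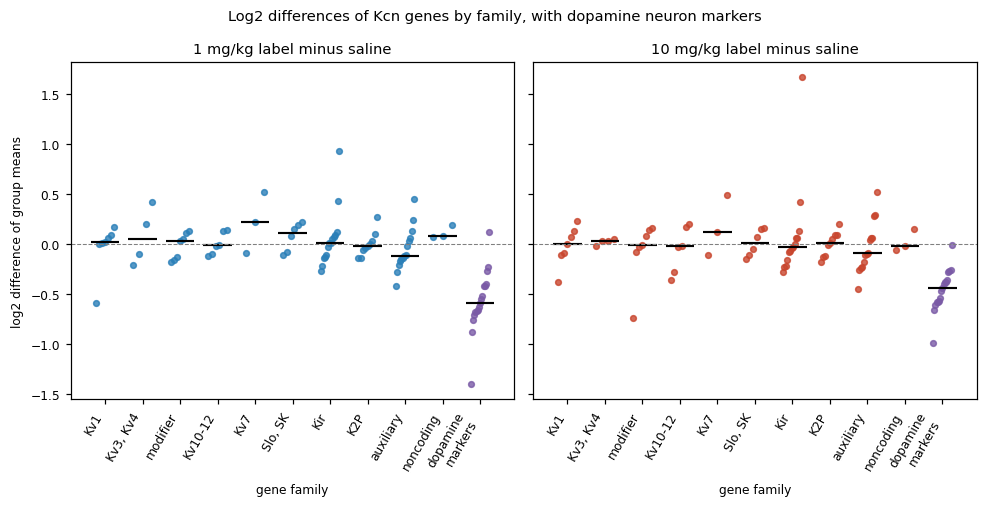
Log2 differences of group means from saline for each channel gene by family, at the 1 mg/kg label on the left and the 10 mg/kg label on the right, with 17 dopamine neuron markers in purple. Each point is 1 gene and each black line is the family's median. The channel families lie around 0, with medians from -0.12 to 0.22, and the dopamine markers lie below, with medians of -0.58 and -0.44.

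Among the voltage-gated alpha subunits of the Kv1 family, which open near threshold at axons and terminals, 1 of 7 genes was lower at an unadjusted p of 0.05 or less at each dose, and it was Kcna5 both times. Kcna5 encodes Kv1.5, a delayed rectifier known from heart, smooth muscle and glia. Its probe set, 1417680_PM_at, read 4.84, 5.23 and 5.11 in saline, 4.34, 4.50 and 4.59 at 1 mg/kg and 4.86, 4.66 and 4.55 at 10 mg/kg. All 1 mg/kg arrays lay below all saline arrays, whereas at 10 mg/kg array 1 lay just above the lowest saline array. The log2 difference was -0.58 ± 0.13 (SE) at 1 mg/kg, with a 95% interval of -0.88 to -0.28 and an adjusted p of 0.378 in limma. At 10 mg/kg it was -0.37 ± 0.13, with an adjusted p of 0.466. Leaving out single arrays moved the 1 mg/kg value between -0.70 and -0.49. Markers of serotonin neurons, which lie in the raphe nuclei, had their highest mean in saline 2, saline 3 and 10 mg/kg array 1 too. Of 6 markers 4 were measured, and their mean was 4.99, 6.70 and 6.28 in saline, 4.77, 4.44 and 4.72 at 1 mg/kg and 5.51, 4.67 and 4.58 at 10 mg/kg. The part of such cells in the Kcna5 values was not tested. Kcna5 has only this probe set, so no second set of probes checks it.

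The brain's main Kv1 subunits gave no such difference. Kcna1 (Kv1.1) read 11.01, 10.44 and 11.20 in saline, 11.09, 11.18 and 10.90 at 1 mg/kg and 10.86, 11.24 and 10.96 at 10 mg/kg. The lowest value was that of saline 2, and all groups overlapped. Its difference was 0.17, with an interval of -0.31 to 0.65, at 1 mg/kg and 0.13, with an interval of -0.34 to 0.61, at 10 mg/kg. Kcna4 (Kv1.4), an A-type subunit, differed by 0.02 at 1 mg/kg and 0.23 at 10 mg/kg, with an interval of -0.14 to 0.61 and overlapping groups. Kcna2 (Kv1.2) differed by less than 0.01 at 1 mg/kg (interval -0.33 to 0.32) and by -0.11 at 10 mg/kg (interval -0.43 to 0.22), and a second probe set of like brightness gave 0.25 and 0.08. On chromosome 6, Kcna5, Kcna1 and Kcna6 are adjacent protein-coding genes in the mouse annotation. Kcna6 differed by 0.01 and -0.09 in its brightest probe set, whereas its second, with a mean of 4.01, gave 0.38 (unadjusted p = 0.00992 in limma) and 0.20.

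Kv3 channels, which allow fast spiking, are built from Kcnc genes. Kcnc2 (Kv3.2) read 10.26, 9.64 and 10.13 in saline, 10.48, 10.53 and 10.29 at 1 mg/kg and 9.68, 10.28 and 10.15 at 10 mg/kg. The 1 mg/kg arrays lay above both other groups, with saline 2 and 10 mg/kg array 1 far below the rest. The difference was 0.42 ± 0.21 (SE) at 1 mg/kg, with an unadjusted p of 0.0791 and an adjusted p of 0.528 in limma, and 0.03 at 10 mg/kg. Kcnc4 (Kv3.4), an inactivating member, read 7.92, 8.0 and 8.13 in saline, 7.86, 7.77 and 7.80 at 1 mg/kg and 8.09, 8.06 and 8.0 at 10 mg/kg. The 1 mg/kg arrays lay below both other groups, by -0.20 ± 0.08 against saline (adjusted p = 0.467 in limma). Its second probe set gave -0.20 as well. Kcnc1 (Kv3.1) differed by 0.20 and -0.02, with overlapping groups. Thalamus markers were high at 1 mg/kg, as were Kcnc2, Kcnj9 and Kcne4, with a median log2 difference of 1.05 from saline, 7 of 7 higher in value, 6 of 7 not overlapping saline, 3 with an unadjusted p of 0.05 or less and 0 called. At 10 mg/kg their median was 0.20. Their part in these channel values was not tested.

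Kv10 to Kv12 subunits carry the Kcnh symbols, and 4 of the 6 genes were above background. Kcnh2 encodes the ERG channel, whose slow deactivation in midbrain dopamine neurons helps cells to repolarise after bursts. Probe set 1449544_PM_a_at read 7.55, 7.46 and 7.63 in saline, 7.57, 7.50 and 7.54 at 1 mg/kg and 7.25, 7.37 and 7.19 at 10 mg/kg. All 10 mg/kg arrays lay below all other arrays. The log2 difference from saline was -0.28 ± 0.08 (SE), an intensity ratio of 1.21 between saline and the 10 mg/kg label, with an unadjusted p of 0.0123 and an adjusted p of 0.441 in limma. Against the 1 mg/kg arrays it was -0.27 ± 0.08 (adjusted p = 0.774). At 1 mg/kg it was -0.01, with an interval of -0.21 to 0.19. Kcnh5 and Kcnh7, the other genes of the family with an unadjusted p of 0.05 or less between the doses, were at background level. Kcnh1, with the largest range of the family, read 6.31 in 10 mg/kg array 1 and between 5.05 and 5.69 in the other 8.

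The Kv7 family was represented by Kcnq3 and Kcnq5, subunits of the M-current that damps repetitive firing, and by Kcnq1, a subunit known from heart and epithelia. Kcnq3 read 3.95, 3.96 and 4.58 in saline, 4.88, 4.95 and 4.22 at 1 mg/kg and 4.24, 4.24 and 4.37 at 10 mg/kg, with overlap between all groups. Its difference was 0.52 ± 0.24 (SE) at 1 mg/kg (adjusted p = 0.505 in limma) and 0.12 at 10 mg/kg. A second probe set of Kcnq5, with a mean of 4.01, gave -0.60 at 1 mg/kg (unadjusted p = 0.0172 in limma). At 10 mg/kg it gave -0.14, with the opposite sign of the brightest Kcnq5 probe set. Between the doses it gave 0.46 (unadjusted p = 0.0493 in limma). Among the calcium- or sodium-activated channels, 6 of 6 genes were above background and 0 had an unadjusted p of 0.05 or less against saline. Kcnma1, the large-conductance BK channel, differed by 0.22 (interval -0.17 to 0.60) and 0.07 (interval -0.31 to 0.46), and its second probe set, of like brightness, by -0.15 and -0.11. Kcnn2, a small-conductance SK channel, differed by 0.08 and 0.16. Kcnn1 and the sodium-activated Kcnt1 were lower at 10 mg/kg than at 1 mg/kg by -0.34 and -0.20 on the log2 scale. The adjusted p was 0.774 for each in limma, and neither lay apart from saline. Between the doses their second probe sets, with means of 4.81 and 6.03, gave -0.0025 and -0.11.

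The inward rectifiers were the largest alpha family, with 14 genes, 11 of them above background. At 1 mg/kg 1 gene was higher and 0 were lower at an unadjusted p of 0.05 or less, and at 10 mg/kg 1 was higher and 1 lower. Kcnj9 encodes GIRK3, a subunit of the G protein-gated channels through which dopamine and GABA-B receptors act. It read 8.25, 7.81 and 8.26 in saline, 8.35, 8.72 and 8.55 at 1 mg/kg and 8.20, 8.39 and 8.14 at 10 mg/kg. Its 1 mg/kg arrays lay above all saline arrays, though array 1 did so only narrowly. The difference was 0.43 ± 0.16 (SE) at 1 mg/kg (adjusted p = 0.442 in limma) and 0.13 at 10 mg/kg. Without saline 2 the 1 mg/kg value was 0.20. The other 3 probe sets of Kcnj9, with means of 3.65, 3.70 and 5.46, gave 0.14, 0.20 and 0.22 at 1 mg/kg. The other GIRK subunits measured, Kcnj3 and Kcnj5, differed by 0.12 and -0.22 at 1 mg/kg and by 0.43 and -0.28 at 10 mg/kg. All groups overlapped in these brightest probe sets. A second probe set of Kcnj3, with a mean of 4.59, gave 0.52 at 1 mg/kg (unadjusted p = 0.0514 in limma) and 0.27 at 10 mg/kg.

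Glial and metabolic rectifiers differed little from saline. Kcnj10 (Kir4.1) and Kcnj16 (Kir5.1) form the channel with which astrocytes and oligodendrocytes take up potassium. Kcnj10 read 10.12, 10.17 and 10.12 in saline, 10.20, 9.99 and 9.85 at 1 mg/kg and 9.88, 9.90 and 10.18 at 10 mg/kg, and its differences were -0.12 and -0.15. Kcnj16 read 7.55, 7.51 and 7.56 in saline, 7.71, 7.56 and 7.49 at 1 mg/kg and 7.22, 7.40 and 7.31 at 10 mg/kg. The 10 mg/kg arrays lay below all others. The difference from saline was -0.23 ± 0.09 (SE), with an adjusted p of 0.493 in limma, and a second probe set gave -0.12. Kcnj11 (Kir6.2) is the pore of the ATP-sensitive channel, which couples metabolism to firing in nigral dopamine neurons. It read 4.99, 5.03 and 5.02 in saline, 5.20, 5.03 and 5.01 at 1 mg/kg and 4.65, 4.79 and 4.94 at 10 mg/kg. Its 10 mg/kg arrays too lay below all others, by -0.22 ± 0.10 against saline (adjusted p = 0.53 in limma). Kcnj8 (Kir6.1), the form of mural cells, differed by 0.09 and 0.00.

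Kcnj13 (Kir7.1), known from epithelia such as the choroid plexus and from smooth muscle, had the largest difference of all 73 genes. Probe set 1456418_PM_at read 3.55, 3.56 and 4.27 in saline, 3.69, 5.57 and 4.91 at 1 mg/kg and 6.71, 5.15 and 4.52 at 10 mg/kg. The 10 mg/kg arrays lay above all saline arrays but spanned more than 2 log2 units, and 2 saline arrays were at background level. The log2 difference was 1.67 ± 0.65 (SE) at 10 mg/kg, with an interval of 0.16 to 3.17 and an adjusted p of 0.494 in limma, and 0.93 ± 0.65 at 1 mg/kg (adjusted p = 0.644). Without 10 mg/kg array 1 the value was 0.73, and without saline 2 as well, an alternative chosen after seeing the data, it was 0.08. The smooth muscle gene Acta2 is given beside it, at 8.47, 9.09 and 9.28 in saline, 9.31, 9.85 and 10.05 at 1 mg/kg and 10.94, 9.76 and 8.92 at 10 mg/kg. The mean of 9 endothelial and mural cell markers, Acta2 among them, ranged from 6.89 to 7.05 in saline. It ranged from 7.11 to 7.17 at 1 mg/kg and from 6.99 to 7.29 at 10 mg/kg. Acta2 had the largest differences of that list, 0.78 and 0.92. The list's median difference was 0.01 at 1 mg/kg, with 5 of 9 higher, and -0.01 at 10 mg/kg, with 4 of 9 higher. Of the other mural markers, Rgs5 differed by 0.01 and -0.04 and Pdgfrb by -0.05 and -0.04. The mean of 7 choroid plexus markers lay between 4.84 and 5.05 in saline and between 4.82 and 5.08 in the MPH arrays. The part of these cells in the Kcnj13 values was not tested.

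**Figure D3:**
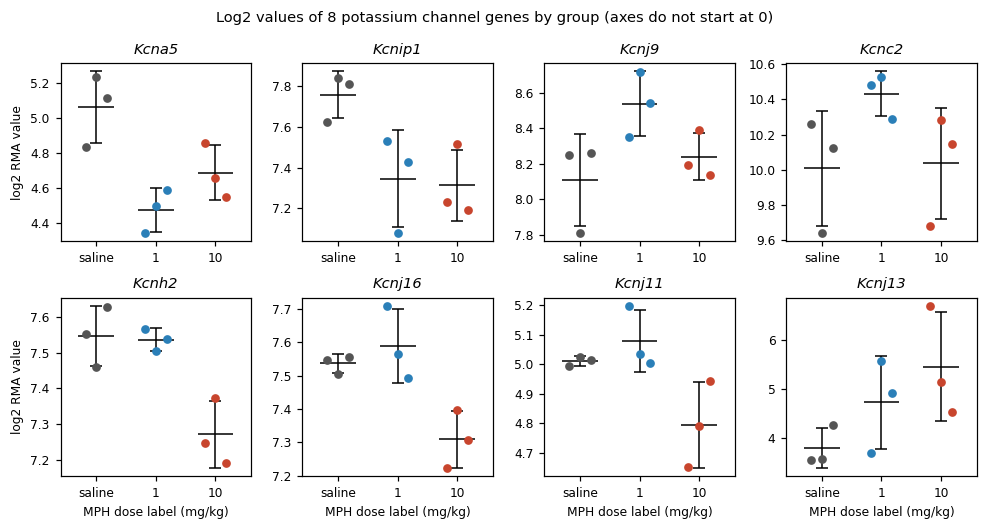
Log2 values of 8 channel genes in saline and at the 1 and 10 mg/kg labels. Points are single arrays, the wide line is the group mean and the bars are SD over 3 arrays, on axes that do not start at 0. Kcnip1 was lower in all 6 MPH arrays than in any saline array, Kcnh2, Kcnj16 and Kcnj11 were lowest in the 10 mg/kg arrays, and Kcnj13 varied most within groups.

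The stretches just upstream of the start are shown for the genes with the smallest unadjusted p at 1 mg/kg and the largest difference at 10 mg/kg. They are the last 150 bases before the annotated RefSeq start in build GRCm38.p6, at chr6:126535556-126535705 for Kcna5 and chr1:87394730-87394879 for Kcnj13, both on the minus strand and written 5′ to 3′. Capitals mark the TATA-box letters TATAAA.
Kcna5: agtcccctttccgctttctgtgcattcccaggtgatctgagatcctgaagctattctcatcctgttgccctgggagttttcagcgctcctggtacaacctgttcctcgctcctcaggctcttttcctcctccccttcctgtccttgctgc
Kcnj13: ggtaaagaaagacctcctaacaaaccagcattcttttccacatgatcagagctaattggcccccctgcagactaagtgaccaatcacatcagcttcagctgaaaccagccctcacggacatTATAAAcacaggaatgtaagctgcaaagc
In Kcnj13 the first base of TATAAA lies 29 bases before the start, and the stretch of Kcna5 holds none. Promoters of 1 chromosome were left out of all the counts and shares given here. Of the 73 genes, 55 had a promoter in the rest of the RefSeq table, 77 promoters in all. TATAAA, searched on both strands in the 250 bases before the start, was found in 3 of the 77 (3.9%: Kcnj13, Kcnj16 and Kcnj9) and in 12.37% of all 32851 promoters of that length. The channel promoters had a median of 7 CG dinucleotides and 56.4% G and C, beside 6 and 52.4% over all promoters. A match describes letters and not a used site.

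The 2-pore channels, which carry the background leak, had 0 of 9 genes with an unadjusted p of 0.05 or less, whichever dose was set against saline, in their brightest probe sets. Kcnk1 (TWIK-1) read 10.02, 9.93 and 9.87 in saline, 9.92, 9.68 and 9.80 at 1 mg/kg and 9.64, 9.80 and 9.83 at 10 mg/kg. All 10 mg/kg arrays were below saline, by -0.18 (interval -0.41 to 0.04). Its second probe set gave -0.38 at 1 mg/kg (unadjusted p = 0.0397 in limma) and -0.21 at 10 mg/kg. Kcnk4 (TRAAK), the most variable of the family, differed by 0.28 (interval -0.19 to 0.75) and 0.06 (interval -0.41 to 0.52), and its second probe set by 0.19 and 0.20 (unadjusted p = 0.0478 in limma at 10 mg/kg). Kcnk2 (TREK-1) differed by -0.06 and 0.20 and Kcnk3 (TASK-1) by -0.14 and -0.01. The modifier subunits, which do not form channels alone but alter Kv2 partners, likewise gave 0 of 7.

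Auxiliary subunits held the only gene above background and coding for a protein whose 6 MPH arrays all lay below all saline arrays. This was Kcnip1 (KChIP1), a calcium-binding partner that brings Kv4 channels of the A-type current to the membrane. Probe set 1448459_PM_at read 7.63, 7.84 and 7.81 in saline, 7.53, 7.08 and 7.43 at 1 mg/kg and 7.23, 7.52 and 7.19 at 10 mg/kg. The log2 difference was -0.41 ± 0.15 (SE) at 1 mg/kg (interval -0.76 to -0.07, adjusted p = 0.441 in limma) and -0.45 ± 0.15 at 10 mg/kg (interval -0.79 to -0.10, adjusted p = 0.457). These are intensity ratios of 1.33 and 1.36 between saline and MPH. A second probe set of like brightness gave -0.32 and -0.39, a dimmer one -0.09 and -0.21, and the dimmest was at background level. Leaving out single arrays moved the 1 mg/kg value between -0.56 and -0.21 and the 10 mg/kg value between -0.59 and -0.35, the weakest 1 mg/kg value being the one without 1 mg/kg array 2. Over all 73 genes, 3 lay below saline in all 6 MPH arrays (4.11%, against 7.8% of all genes), the other two being Kcne2 and Kcne3 at background level. In the other direction there was 1 (1.37%, against 3.4%), the antisense RNA Kcnmb4os2.

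Of the remaining auxiliary genes, Kcnab2, a beta subunit of Kv1 channels, read 10.04, 9.76 and 10.03 in saline, 9.90, 9.78 and 9.79 at 1 mg/kg and 9.66, 9.79 and 9.68 at 10 mg/kg. Saline 2 lay within the MPH values. Its difference was -0.12 at 1 mg/kg and -0.23 ± 0.10 (SE) at 10 mg/kg (adjusted p = 0.514 in limma). A dimmer second probe set, with a mean of 4.28, had the opposite sign, at 0.25 and 0.11. Kcnab1 differed by 0.25 and 0.06. Kcnip4 (KChIP4) ranged only from 9.94 to 10.08 over the 9 arrays, with log2 differences of 0.06 (interval -0.09 to 0.22) and 0.04 (interval -0.11 to 0.20), and its dimmer probe sets gave -0.05 and -0.06 at 1 mg/kg and -0.22 and -0.08 at 10 mg/kg. Kcnmb4, the neuronal beta subunit of BK channels, differed by -0.21 and -0.11, with overlapping groups. Kcne4 differed by 0.46 ± 0.20 at 1 mg/kg (adjusted p = 0.489 in limma), with the lowest value, 4.43, in saline 2.

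The noncoding RNAs lie beside channel genes and were read by their own probe sets. Kcnmb4os2, antisense to Kcnmb4, read 3.71, 3.77 and 3.79 in saline, 3.85, 3.85 and 3.80 at 1 mg/kg and 3.91, 3.92 and 3.90 at 10 mg/kg. The groups did not overlap, but all values were close to the background level, and the differences were 0.08 and 0.16. Kcnq1ot1, the long RNA that silences imprinted genes around Kcnq1, read 8.92, 8.87 and 8.73 in saline, 8.83, 9.11 and 9.15 at 1 mg/kg and 8.92, 8.79 and 8.77 at 10 mg/kg. Its groups overlapped, and its differences were 0.19 (interval -0.07 to 0.45) and -0.01 (interval -0.27 to 0.24). Of its other bright probe sets, the one with a mean of 8.43 gave 0.27 (unadjusted p = 0.00657 in limma) and 0.18 (unadjusted p = 0.0391), and the one with a mean of 7.98 gave -0.04 and -0.08, so its probe sets did not share a direction at either dose.

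Between the doses, 2 channel genes were higher at 10 mg/kg (2.74%, against 2.84% of all genes) and 6 lower (8.22%, against 2.98%) at an unadjusted p of 0.05 or less. Those lower were Kcnh2, Kcnh7, Kcnj11, Kcnj16, Kcnn1 and Kcnt1, and those higher were Kcnc4 and Kcnh5. Without 10 mg/kg array 1 the number in both directions was 3, against 5.29% of all genes, and it was 4 in a fit on the probe sets above background alone. In the fit on all probe sets, 6 of these 8 genes were above background, which is 10.2% of the 59 such channel genes against 5.82% of all genes above background. Of these, 1 was higher (1.69%, against 2.99%) and 5 were lower (8.47%, against 2.84%). Some marker lists were lower at 10 mg/kg than at 1 mg/kg. These were 7 of 7 thalamus markers (median -0.85), 9 of 9 microglia markers (median -0.18), 8 of 9 oligodendrocyte markers (median -0.17) and 4 of 4 GABA neuron markers (median -0.24). Other lists were mostly higher, with 11 of 17 dopamine neuron (median 0.09), 3 of 4 serotonin neuron (median 0.35) and 6 of 7 cortex or hippocampus markers (median 0.40). Astrocyte markers were split, with 4 higher and 5 lower, as were endothelial and mural markers, with 5 higher and 4 lower. Choroid plexus markers had 4 higher and 3 lower, and cholinergic and motor neuron markers 3 higher and 2 lower. The part of these cell types in the channel values was not tested. Groups that did not overlap numbered 9 with the 10 mg/kg arrays lower (12.3%, against 8.67%) and 6 with them higher (8.22%, against 8.9%).

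Several channel genes stood out in single arrays. In 10 mg/kg array 1, 7 genes lay more than 0.5 above their mean over the other 8 arrays (9.59%, against 3.13% of all genes) and 5 lay as far below (6.85%, against 1.37%). In saline 2 the counts were 3 above (4.11%, against 1.47%) and 7 below (9.59%, against 1.1%). In 1 mg/kg array 1 there were 1 above and 5 below (6.85%, against 1.04%), and in saline 1 there were 1 above and 3 below (4.11%, against 1.17%). The other arrays had 3 or fewer in all, and 1 mg/kg array 3 and 10 mg/kg array 3 had none. Kcnip2 (KChIP2) read 5.41, 6.46 and 5.89 in saline, 5.24, 5.56 and 6.13 at 1 mg/kg and 7.74, 5.69 and 5.90 at 10 mg/kg. Kcnq5 (Kv7.5) read 6.32, 7.05 and 7.04 in saline, 6.46, 6.73 and 6.96 at 1 mg/kg and 8.10, 7.01 and 6.80 at 10 mg/kg. Each was highest in 10 mg/kg array 1, as were Kcnf1, Kcnh1 and Kcnv1. The mean of 7 cortex or hippocampus markers was 6.74 in that array and between 5.60 and 6.06 in the other 8.

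Kcng4 (Kv6.4) showed the opposite, at 7.24, 5.97 and 7.05 in saline, 6.68, 6.82 and 6.29 at 1 mg/kg and 5.53, 6.32 and 6.21 at 10 mg/kg. Its 2 lowest values were in 10 mg/kg array 1 and saline 2. The same 2 arrays held the 2 lowest values of 7 channel genes (Kcna1, Kcnc1, Kcnc2, Kcne4, Kcng4, Kcns3 and Kcnt1), which is 9.59% against 6.83% of all genes. The mean of 7 thalamus markers was 5.94 in saline 2 and 6.35 in 10 mg/kg array 1, and between 6.97 and 8.0 in the other 7 arrays. Whether tissue next to the substantia nigra had a part in these values was not tested. The 3′ to 5′ difference of the Actb control probes also moved with treatment, at 0.88 to 0.93 in saline and 1.03 to 1.19 in the MPH arrays, whereas that of Gapdh overlapped, and the part of RNA integrity in the channel values was not tested.

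Many channel genes were read by more than 1 probe set, which bears on how far a single value can be taken. Of the 73 genes, 36 had several, with 56 probe sets besides the brightest, 40 of them above background. Of these 40, 12 had the opposite sign of the brightest at 1 mg/kg and 20 at 10 mg/kg. An unadjusted p of 0.05 or less was found for 5 of the 40 at 1 mg/kg, where 10.3% of all probe sets had it. At 10 mg/kg it was found for 4 of the 40, where 9.59% of all probe sets had it. Kcnip1 and Kcnj9, with the same sign at 1 mg/kg in all 4 of their probe sets, were not among those with opposite signs there. The dimmest Kcnip1 probe set, with a mean of 3.36, was below background and had the opposite sign at 10 mg/kg (0.06). Kcnj9 probe sets with means of 3.65 and 3.70 were close to the background level, so their sign adds little.

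Proteins that assemble with potassium channels but carry other names were read for comparison. Of 15 such genes, 13 were measured and 0 passed the adjusted threshold at either dose. Dpp6, a membrane partner of Kv4 channels, read 9.92, 9.93 and 9.85 in saline, 9.53, 9.41 and 9.62 at 1 mg/kg and 9.63, 9.69 and 9.59 at 10 mg/kg. All 6 MPH arrays lay below saline, as for Kcnip1, which binds the same channels. The other genes of Kv4 channels read here overlapped saline at both doses in their brightest probe sets. Kcnd3 and Kcnip3 were left out by the rule and Kcnd2 was not measured, so nothing is said of these. Dpp10 differed by 0.08 and -0.11, Kcnip4 by 0.06 and 0.04, Kcnip2 by -0.28 and 0.52 and the alpha subunit Kcnd1 by -0.10 and 0.05. The log2 difference of Dpp6 was -0.38 ± 0.08 (SE) at 1 mg/kg (adjusted p = 0.378 in limma) and -0.26 ± 0.08 at 10 mg/kg (adjusted p = 0.448). Lrrc52 was also lower at 1 mg/kg at an unadjusted p of 0.05 or less, at background level. The median over the 13 genes was -0.15 at 1 mg/kg and -0.08 at 10 mg/kg, beside -0.02 for all genes in both. Of the HCN pacemaker channels only Hcn2 was measured, at 7.77, 7.0 and 8.02 in saline, 7.62, 7.95 and 7.25 at 1 mg/kg and 6.64, 7.34 and 7.07 at 10 mg/kg. It too was lowest in 10 mg/kg array 1 and saline 2, and its differences were 0.01 and -0.58.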

How the data were processed

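The authors deposited log2 expression values of 9 Affymetrix HT MG-430 PM arrays, made with Robust Multichip Average (background correction, quantile normalization, summary per probe set; no version given). The methods also name ComBat for a batch of the 3 replicates, and whether the deposited values include it is not given in the sources used here. After 104 control probe sets were left out, 45037 entered a limma fit (version 3.58.1, R 4.3.3; groups plus replicate number as a block, eBayes, Benjamini-Hochberg). Residuals of arrays with the same number correlated negatively (from -0.651 to -0.0864), as they do where replicate means have been removed. Whether ComBat had been applied was not tested. The block was kept because the methods describe the batch. If the values already hold that correction, the fit without the block counts 6 residual degrees of freedom where 4 remain. Its p-values are then too small. Symbols came from the platform annotation, in which 28898 probe sets name a single gene.

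Members, gene lists and tests were chosen with earlier results of these data known. Genes were named by role, by smallest p per direction among those moving alike in all 3 replicate numbers (up to 5), by adjusted p, and by largest range per family. Genes near such values were added after these were seen, namely those at an unadjusted p of 0.05 or less, those not overlapping between groups, and those of the array patterns. The fit was tested on simulated data. The number of arrays limits the precision. Promoters are from RefSeq (GRCm38.p6). A planned description of protein motifs was not run, since no protein table was used here.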

Additional observations from a re-analysis of the deposited data

How the results depend on the processing

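In all 22 alternatives, 0 channel genes were called in each comparison. The thresholds of 0.1 and 0.2 were applied only to the fit with the block. The smallest adjusted p of a channel gene there was 0.328 in limma, so these thresholds could call none and are no further test. Without the block, Kcna5 had an adjusted p of 0.0724 at 1 mg/kg in limma. For the mean of both doses Kcna5 had 0.0681 and Kcnip1 0.0987. The 394 values of single genes recomputed under the alternatives kept their direction. Those genes had been named for the smallest p among genes moving alike in all 3 replicate numbers. Their direction was therefore largely set by that choice, and its being kept is no test of the other channel genes. The number at an unadjusted p of 0.05 or less was less stable. Shares of all genes stand in parentheses. At 1 mg/kg the number was 4 (10.7%), and 7 (11%) with only the groups compared, 11 (12.5%) without saline 1 and 10 mg/kg array 1, and 2 to 8 (5.46% to 13.1%) with single arrays left out. At 10 mg/kg it was 7 (10.2%), and 4 (10.2%) with probe sets averaged per gene, 12 (8.04%) without saline 2 and 10 mg/kg array 1, a pair chosen after seeing the data, and 4 to 7 (7.84% to 10.5%) with single arrays left out. Between the doses it was 8 (5.83%), and 4 (4.44%) in a fit on probe sets above background alone, 5 (5.81%) with probe sets averaged, 3 (5.09%) without saline 1 and 10 mg/kg array 1, and 3 to 10 (4.45% to 6.77%) with single arrays left out. For the mean of both doses it was 3 (12.2%), and 6 (12.4%) with an intensity trend and the robust option, 9 (12.1%) without saline 1 and 10 mg/kg array 1, 8 (8.85%) without saline 2 and 10 mg/kg array 1, and 2 to 7 (8.5% to 13%) with single arrays left out. Without the replicate block, a fit whose p-values may be too small, it was 12 at 1 mg/kg (19.6%) and 11 for the mean of both doses (20.9%). The block changed no call of a channel gene at an adjusted p of 0.05.

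The median difference at 10 mg/kg, -0.01, was -0.0607 without saline 2 and 10 mg/kg array 1 and ranged from -0.0431 to 0.0385 with single arrays left out. That for the mean of both doses, 0.03, was -0.0197 with array weights, -0.0371 without saline 2 and 10 mg/kg array 1, and -0.0445 to 0.0472 with single arrays left out, so its sign is not settled. The causes of these shifts were not tested. Values near 3.59 or below carry no measurable difference.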
